A study of Sus scrofa with 18 samples.

Results

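Drug and xenobiotic metabolism enzymes are the oxidases, reductases and transferases that make foreign compounds and many body compounds more soluble, so that bile and urine can carry them away. Genes of 8 such enzyme families were described here in pig kidneys: cytochrome P450 (CYP), flavin-containing monooxygenase (FMO), aldehyde dehydrogenase (ALDH), alcohol dehydrogenase (ADH), aldo-keto reductase (AKR), UDP-glucuronosyltransferase (UGT), sulfotransferase (SULT) and glutathione S-transferase (GST). Members were chosen by a rule on the gene symbol, from probe sets to which the platform annotation gives a single symbol, leaving out CYP27B1. They were chosen with earlier results of these data known. This gave 85 probe sets of 56 genes, out of 6765 genes named in this way, and the probe set with the highest mean over the 18 arrays stood for each gene. They are 27 CYP, 2 FMO, 11 ALDH, 1 ADH, 5 AKR, 1 UGT, 3 SULT and 6 GST genes.

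The first step of drug metabolism usually adds or uncovers a reactive group: P450 and FMO enzymes insert oxygen with electrons from NADPH, ALDH and ADH oxidise aldehydes and alcohols, and AKR reduce aldehydes and ketones. The second step attaches a polar group, which is glucuronic acid for UGT, sulfate for SULT and glutathione for GST. In the kidney many of these enzymes are concentrated in the proximal tubule, which also takes up organic anions and cations from blood for secretion into urine. Several members have body compounds as their main substrates, such as sterols, vitamin D, retinal, amino acid breakdown products and folate.

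The series concerns pig kidney transplantation, injury when blood flow returns to the graft (ischemia and reperfusion) and carbon monoxide (CO), and each kidney was measured on 1 Affymetrix pig array. The groups were transplanted CO-treated kidneys at 24 h (n = 4, donors 5 to 8), transplanted untreated kidneys at 24 h (n = 4, donors 5 to 8), transplanted CO-treated kidneys at 4 h (n = 4, donors 1 to 4), transplanted untreated kidneys at 4 h (n = 4, donors 1 to 4) and naive kidneys that were not transplanted (n = 2). Each donor number thus has 1 CO and 1 untreated kidney at the same time. The labels give no strain, age or sex and do not say whether donor, graft or recipient received CO, and CO arrays, named as such by title and source, carry the word air as their treatment. The naive group has only 2 kidneys, and numbers in the names of their array files recur in those of both donor 4 kidneys, and whether those kidneys share animals is not stated.

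Values are log2 levels per probe set, normalised between arrays by the authors with RMA, and the number of arrays limits their precision. Changes are differences of log2 group means from limma with standard errors (SE), and a change passed where its p, adjusted over all 23999 probe sets, was under 0.05. Levels near 1.61, the 95th percentile of tag control probe sets, were taken as background. The naive arrays, the 4 h arrays and the untreated 24 h array of donor 5 fell into array batches 1 and 2, and all other 24 h arrays into batches 3 and 4, so time and batch are largely confounded. One array stood apart: over all probe sets the untreated 4 h kidney of donor 1 correlated better with the naive kidneys (mean Pearson r of 0.982) than with its own group (0.956), while in all other transplanted kidneys the correlation with the own group was the higher one. Counts that rest on this kidney are also given without it.

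The label kidney was checked against markers. The 8 measured proximal tubule markers (of 14 listed) had mean levels of 10.04 and 10.10 in the naive kidneys. The 6 measured adrenal markers were mixed. MC2R (4.35 and 4.49 in naive kidneys), NR5A1 (3.38 and 3.70) and HSD3B1 (2.54 and 3.29) lay above background in every kidney, and CYP17A1 in some. STAR and CYP11A1 were below background on all 18 arrays. CYP11A1, the enzyme that starts steroid synthesis, is thus the 1 member below background in every kidney. Another 8 members were never more than 1 log2 unit above background, namely ALDH1L2, CYP17A1, CYP19A1, CYP26A1, CYP2E1, CYP7A1, CYP8B1 and SULT2A1. These include the bile acid enzymes CYP7A1 and CYP8B1, which are known for their role in liver.

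At 24 h after transplantation without CO, 23 of the 56 enzyme genes fell relative to naive kidneys and none of the 56 probe sets that stand for the genes rose. The falls included at least 1 gene of each of the 8 families and reached 25.9-fold for CYP2A19, 20.6-fold for UGT2B31 and 13.0-fold for the probe set used for CYP2D25. A second probe set of CYP2D25 did not fall. Over all probe sets of the array, 14.6% passed in this comparison, 7.77% lower and 6.79% higher. The median change of the 56 genes was -0.94, against 0.0075 over all probe sets. In 32 of the 56 genes all untreated 24 h kidneys lay below both naive kidneys, against 19.2% of all probe sets, and in 2 genes (CYP51 and GSTM3) all lay above, against 19.8% of all probe sets. With CO, 19 of 56 fell at 24 h and 0 rose, where 11.7% of all probe sets passed (5.93% lower, 5.75% higher), with a median change of -0.79. Both counts share the same 2 naive kidneys.

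**Figure D1:**
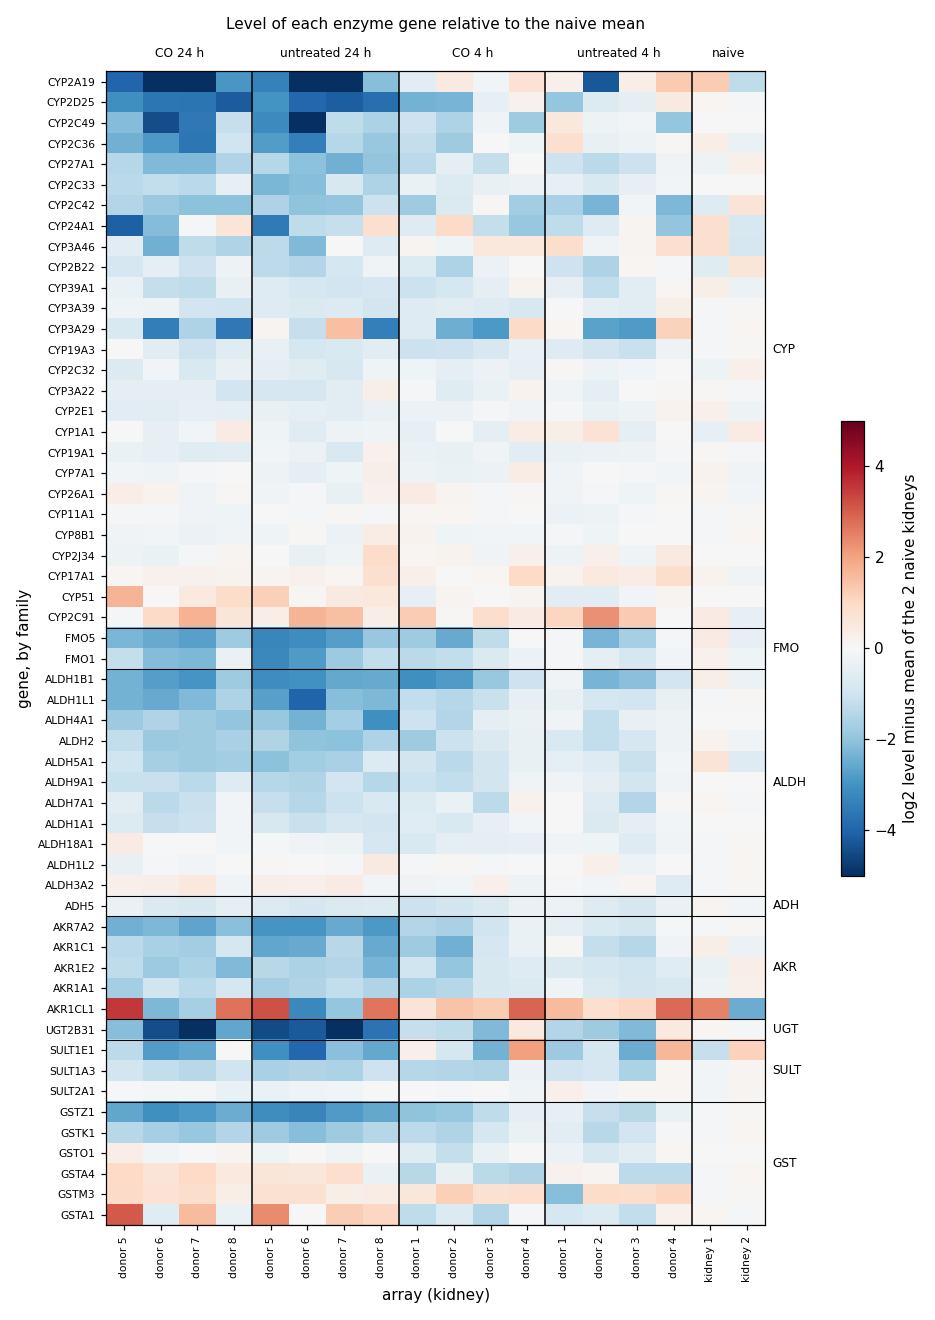
Log2 level of the 56 enzyme genes (down, by family, the largest falls first) in each of the 18 kidneys (across, by group), minus the mean of the 2 naive kidneys. The colour scale saturates at 5 log2 units either way, blue marks levels below naive, and CYP2A19, CYP2D25 and UGT2B31 are blue in all 8 kidneys at 24 h.

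The same arrays differed in their tissue markers. The mean level of the 8 proximal tubule markers was 7.45 to 8.85 in CO 24 h kidneys, 6.75 to 7.88 in untreated 24 h kidneys, 8.51 to 9.70 in CO 4 h kidneys, 9.17 to 9.90 in untreated 4 h kidneys and 10.04 to 10.10 in naive kidneys. That of 8 myeloid markers was 3.55 to 5.59 in CO 24 h, 4.21 to 5.81 in untreated 24 h, 3.68 to 4.13 in CO 4 h and 3.62 to 5.68 in untreated 4 h kidneys, against 2.60 to 3.19 in naive kidneys, and none of these markers was below background on all arrays. At 24 h 7 of the 8 proximal tubule markers fell and 4 of the 8 myeloid markers rose, with CO and without. Likewise in both, 1 of 3 loop and distal nephron markers fell, and 1 of 5 endothelial and 1 of 7 stromal markers rose. EGF, of the loop and distal nephron list, had a mean of 9.47 in naive and 5.25 in untreated 24 h kidneys. The 1 podocyte marker did not pass. Of 4 fat markers 1 fell with CO and without, of 6 adrenal markers 1 fell without CO, and of 4 erythroid markers 0 passed. The 6 lymphocyte markers had a mean of 2.91 to 5.28 in CO 24 h and 3.10 to 5.73 in untreated 24 h kidneys, against 2.53 to 3.40 in naive kidneys, and 2 of them (CD3D and IL2RG) rose without CO and 0 with CO. The 7 liver markers had a mean of 3.17 to 3.70 in CO 24 h and 3.06 to 3.64 in untreated 24 h kidneys, against 4.27 to 4.28 in naive kidneys, and 1 of them fell without CO (TF, the iron carrier transferrin, 22.6-fold lower) and 2 with CO. ALB, the liver's albumin, had a mean of 1.64 in naive kidneys, close to background. The part of these shifts in the enzyme results was not tested. In RNA from whole tissue, fewer cells of a type and less RNA per cell cannot be told apart.

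Among the 16 measured P450 genes of the CYP1, CYP2 and CYP3 families, which act mainly on drugs and other foreign compounds, 4 fell at 24 h without CO. CYP2A19, the pig relative of the human nicotine-oxidising CYP2A6, had log2 levels of 5.58, 2.72, 2.83 and 6.64 in the CO 24 h kidneys of donors 5 to 8 and of 6.15, 3.04, 2.78 and 7.42 in their untreated partners, against 10.83 and 8.26 in the naive kidneys. Both 24 h groups lay wholly below naive, and in both the kidneys of donors 6 and 7 were the lowest. The change was -4.70 ± 1.52 without CO (adjusted p = 0.0477), and it no longer passed without naive 1 (adjusted p = 0.39) or naive 2 (adjusted p = 0.0883).

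CYP2D25, a pig P450 known to hydroxylate vitamin D3 at carbon 25, had levels of 5.96, 5.42, 5.37 and 4.87 in CO 24 h kidneys and of 6.06, 5.10, 4.92 and 5.28 in untreated 24 h kidneys, against 9.15 and 8.94 in naive kidneys. No 24 h kidney came within 2 log2 units of a naive one. It fell by 3.70 ± 0.67 without CO (adjusted p = 0.00198). A second probe set of CYP2D25, of similar mean signal (6.88 over the 18 arrays), did not fall: its change was 0.29 (adjusted p = 0.618), so the probe sets of this gene disagree.

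The CYP2C genes, whose human relatives oxidise many drugs and arachidonic acid, split. CYP2C36 (-2.39 ± 0.66, adjusted p = 0.0224) and CYP2C33 (-1.69 ± 0.34, adjusted p = 0.00369) fell, and CYP2C36 did not pass with either naive kidney left out. A second probe set of CYP2C36, below background at a mean of 1.31, changed by -0.29 (adjusted p = 0.3285). CYP2C49 had an even lower estimate but a wide error (-2.80 ± 0.97, adjusted p = 0.0653), and CYP2C42 (-1.65, adjusted p = 0.0667), CYP2C32 (-0.51, adjusted p = 0.0984) and CYP2C91 (0.96, adjusted p = 0.315) did not pass either. In the RefSeq annotation of Sscrofa11.1 the genes CYP2C36, CYP2C32, CYP2C49 and CYP2C42 follow one another with 1 gene between neighbours, and how far the array tells such close relatives apart was not tested. None of the 4 measured CYP3A genes, relatives of the main human drug oxidase CYP3A4, passed; their changes ran between -1.04 (CYP3A46) and -0.49 (CYP3A22). CYP1A1, the classical target of the dioxin receptor, stayed close to background, with 1.41 to 1.81 in untreated 24 h kidneys and 1.62 and 2.43 in naive kidneys, and CYP2J34 was low in all groups as well. CYP2B22, whose human relative oxidises bupropion, had an estimate of -0.95 (adjusted p = 0.228).

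Of the 11 other P450 genes, which handle sterols, steroids, bile acids, vitamin D and retinoids, CYP27A1 alone fell. This mitochondrial sterol 27-hydroxylase had 4.63, 3.99, 3.65 and 4.09 in untreated 24 h kidneys, against 5.80 and 6.29 in naive kidneys (-1.95 ± 0.40, adjusted p = 0.00417), and its untreated 24 h and naive levels were separate. CYP51, the demethylase of cholesterol synthesis, was among the few with a positive estimate (0.55 ± 0.37, adjusted p = 0.372). CYP24A1, which inactivates vitamin D, had a wide range in both groups, 2.57 to 6.91 in untreated 24 h and 5.29 and 6.93 in naive kidneys (adjusted p = 0.55). CYP39A1, which hydroxylates 24-hydroxycholesterol (-0.81, adjusted p = 0.163), and the aromatase CYP19A3 (-0.64, adjusted p = 0.129) did not pass. The probe set used for CYP19A3 had a mean of 6.17 over the 18 arrays. Its other probe sets had means of 0.85 to 1.67, near or below background, and did not pass either.

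Both measured FMO genes fell at 24 h without CO. FMO1 had 6.52, 6.91, 7.93 and 8.49 in untreated 24 h kidneys, against 9.96 and 9.51 in naive kidneys (-2.27 ± 0.53, adjusted p = 0.00981). FMO5 had 3.69, 3.88, 4.20 and 5.07 in untreated 24 h kidneys, against 7.36 and 6.58 in naive kidneys (-2.76 ± 0.66, adjusted p = 0.0103). For each gene the lowest naive kidney was above the highest untreated 24 h kidney by more than 1 log2 unit. FMO1 did not pass without naive 1 (adjusted p = 0.124) or naive 2 (adjusted p = 0.0538), and FMO5 not without naive 1 (adjusted p = 0.144).

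Of the 11 ALDH genes, 7 fell at 24 h without CO. ALDH1B1, a mitochondrial enzyme that oxidises acetaldehyde and retinal, had 7.16, 6.77, 6.59 and 7.73 in CO 24 h kidneys and 6.43, 6.49, 6.95 and 6.98 in untreated 24 h kidneys, against 9.83 and 9.21 in naive kidneys (untreated -2.81 ± 0.57, adjusted p = 0.0042). ALDH1L1, the cytosolic formyltetrahydrofolate dehydrogenase of folate metabolism, fell by 2.77 ± 0.42 without CO (adjusted p = 0.000704), while its second probe set, near background at a mean of 1.96, changed by 0.0111. ALDH4A1, which completes the breakdown of proline, fell by 2.26 ± 0.37 (adjusted p = 0.00111), on both of its probe sets. The remaining falls were those of ALDH2, the main mitochondrial acetaldehyde oxidase (-1.78), ALDH5A1, which clears succinic semialdehyde (-1.51), ALDH9A1, a carnitine synthesis enzyme (-1.33), and ALDH1A1, a cytosolic retinal oxidase (-0.93), which did not pass with either naive kidney left out. Of the other 4, ALDH3A2, which oxidises fatty aldehydes, had 9.08, 9.02, 9.17 and 8.64 in untreated 24 h kidneys, against 8.72 and 8.84 in naive kidneys (0.20 ± 0.23, adjusted p = 0.636). ALDH7A1, of lysine breakdown, had an estimate of -1.10 (adjusted p = 0.104), ALDH18A1, which makes proline, -0.35 (adjusted p = 0.313), and ALDH1L2, the mitochondrial counterpart of ALDH1L1, 0.11 (adjusted p = 0.73).

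ADH5, the one alcohol dehydrogenase measured, clears formaldehyde and S-nitrosoglutathione. It had 8.58, 8.41, 8.52 and 8.56 in untreated 24 h kidneys, against 9.39 and 9.11 in naive kidneys, a small fall (-0.73 ± 0.21, adjusted p = 0.028) that did not pass with either naive kidney left out.

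Of the 5 AKR genes, 4 fell. AKR7A2, which reduces succinic semialdehyde and toxic aldehydes, had 7.16, 7.29, 6.93 and 7.47 in CO 24 h kidneys and 6.61, 6.62, 7.03 and 6.67 in untreated 24 h kidneys, against 9.50 and 9.60 in naive kidneys. Its fall of 2.82 ± 0.30 without CO had the smallest p of all members (adjusted p = 0.000138). AKR1C1, a reductase of steroids and other ketones in human (-2.26 ± 0.53, adjusted p = 0.00912), AKR1E2, a sugar ketone reductase (-1.69 ± 0.34, adjusted p = 0.00411), and AKR1A1, the general aldehyde reductase (-1.48 ± 0.28, adjusted p = 0.00274), also fell. The levels of AKR1CL1 split within groups: its naive kidneys were at 7.81 and 2.87, and its untreated 24 h kidneys at 8.54, 2.14, 3.41 and 8.02 (0.18 ± 1.85, adjusted p = 0.965).

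Of the conjugating families, 4 of 10 genes fell at 24 h without CO. UGT2B31, which glucuronidates phenols and steroids, had 5.79, 3.49, 1.81 and 5.33 in CO 24 h kidneys and 3.44, 3.74, 2.83 and 4.21 in untreated 24 h kidneys, against 8.03 and 7.81 in naive kidneys. Every 24 h kidney was more than 2 log2 units below naive. Without CO the fall was 4.37 ± 0.94 (adjusted p = 0.00567), its second probe set fell by 3.77 (adjusted p = 0.0115), and the change did not pass without naive 1 (adjusted p = 0.0705) or naive 2 (adjusted p = 0.0508).

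Among the sulfotransferases, SULT1A3, which sulfates dopamine and other catechols in human, had 6.91, 7.02, 6.94 and 7.50 in untreated 24 h kidneys, against 8.39 and 8.66 in naive kidneys (-1.43 ± 0.38, adjusted p = 0.0183), and did not pass with either naive kidney left out. SULT1E1, which inactivates estrogens, had a larger estimate with naive kidneys far apart (3.38, 2.52, 4.36 and 3.88 in untreated 24 h kidneys, against 5.31 and 7.60 in naive kidneys, adjusted p = 0.109). SULT2A1, the sulfotransferase of DHEA, lay near background.

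Of the 6 GST genes 2 fell. GSTZ1, which also isomerises maleylacetoacetate in tyrosine breakdown, had 5.85, 5.38, 5.57 and 5.96 in CO 24 h kidneys and 5.33, 5.12, 5.59 and 5.88 in untreated 24 h kidneys, against 8.38 and 8.49 in naive kidneys (untreated -2.96 ± 0.38, adjusted p = 0.000225). GSTK1, the GST of mitochondria and peroxisomes, fell by 1.78 ± 0.33 (adjusted p = 0.0025). GSTO1, which reduces dehydroascorbate, had 9.68, 9.85, 9.67 and 9.90 in untreated 24 h kidneys, against 9.89 and 9.87 in naive kidneys, an estimate of -0.11 ± 0.27 whose sign turned with quantile normalisation and with array batch in the fit. The estimates of GSTA4, which clears the lipid peroxidation product 4-hydroxynonenal (0.41, adjusted p = 0.613), GSTM3 (0.55, adjusted p = 0.623) and GSTA1 (1.16, adjusted p = 0.393) were positive and did not pass. The 3 probe sets of GSTA1 disagreed: the second gave -0.93 (adjusted p = 0.578), and the third, close to background with a mean of 1.77, gave 0.77 (adjusted p = 0.0068). The probe set used for GSTA1, like that of CYP2E1, is of a type that the platform marks as shared between transcripts.

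**Figure D2:**
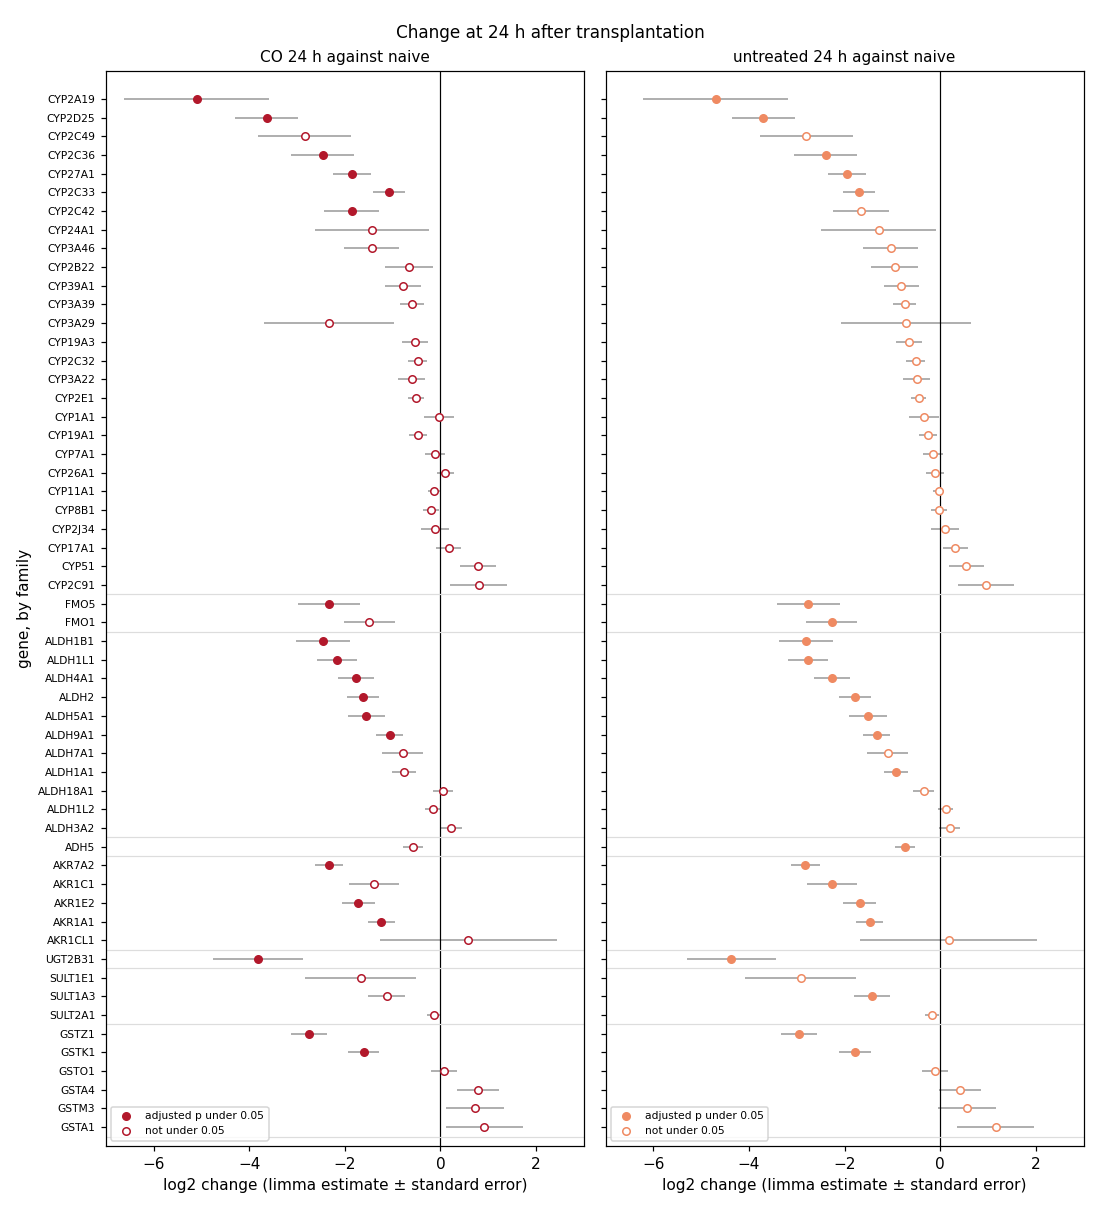
Log2 change of each enzyme gene at 24 h with CO (left) and without CO (right) relative to naive kidneys, estimates from limma with standard errors. Filled points passed at an adjusted p under 0.05: 19 genes with CO and 23 without, every one of them below 0.

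**Figure D3:**
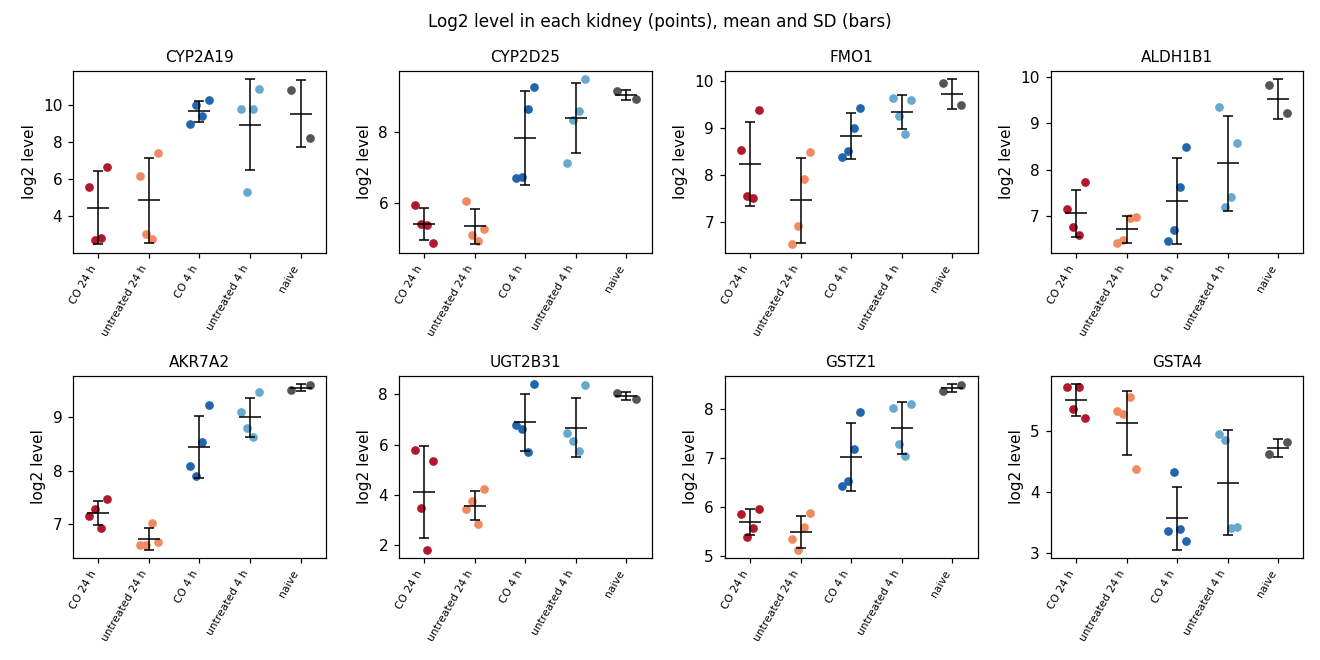
Log2 level in every kidney of 8 enzyme genes by group, with the mean and SD as bars. CYP2A19, CYP2D25, UGT2B31, AKR7A2 and GSTZ1 have all 24 h kidneys below the naive kidneys, whereas the GSTA4 levels of CO kidneys are 5.21 to 5.73 at 24 h and 3.20 to 4.33 at 4 h.

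With CO, the largest falls at 24 h were those of CYP2A19 (-5.10 ± 1.52, adjusted p = 0.0383), UGT2B31 (-3.82 ± 0.94, adjusted p = 0.0152), CYP2D25 (-3.64 ± 0.67, adjusted p = 0.00328), GSTZ1 (-2.75 ± 0.38, adjusted p = 0.0006) and CYP2C36 (-2.46 ± 0.66, adjusted p = 0.0238). The second probe set of CYP2D25 did not fall with CO either (0.23, adjusted p = 0.7045). That of CYP2C36, below background on average, changed by -0.29 with CO (adjusted p = 0.3452). Some genes passed on only one side. FMO1 had a change of -1.49 with CO (adjusted p = 0.0828) and -2.27 without CO, and AKR1C1 of -1.40 with CO (adjusted p = 0.0972) and -2.26 without CO. CYP2C42 changed by -1.86 with CO (adjusted p = 0.0471) and by -1.65 without CO (adjusted p = 0.0667). In the test of CO against untreated kidneys at 24 h none of these differences passed, with an adjusted p of 0.9999 for every member.

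The calls at 24 h rest on both naive kidneys. Without naive 1, 10 members passed in untreated kidneys and 4 in CO kidneys, and without naive 2, 14 and 6. In untreated kidneys 7 members passed with any 1 array of the compared groups left out: AKR7A2, ALDH1L1, ALDH4A1, CYP2C33, CYP2D25, GSTK1 and GSTZ1. In CO kidneys AKR7A2 and GSTZ1 did. With array batch in the fit 2 members passed without CO, AKR7A2 and GSTZ1, and 0 with CO, while all 23 and all 19 genes kept their negative sign and the median change of the 23 was -2.13, against -2.26 without the batch. The untreated kidney of donor 5 and naive 2 shared batch 2, and there all 23 genes were lower in the donor 5 kidney, by 0.53 to 4.37 and with a median difference of -2.10. These 23 genes were chosen on those kidneys among others, so the choice favoured that sign. Over all members the median difference there was -0.77. CO 24 h and naive kidneys shared no batch.

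At 4 h the picture was weaker. Without CO, 0 of the 56 genes passed, where 1.5% of all probe sets passed. An unadjusted p under 0.05 was found in 11 members and in 20.7% of all probe sets. With array weights 8 members passed, a count given without the share of all probe sets in that fit. The median change was -0.48. The 3 genes of smallest p were CYP2C42 (-1.59, adjusted p = 0.133), CYP19A3 (-0.74, adjusted p = 0.138) and ADH5 (-0.53, adjusted p = 0.166). Without the kidney of donor 1, ALDH1B1 passed below naive and GSTM3 above it. GSTM3 had 2.34 in that kidney and 5.36 to 5.57 in the other 3 untreated 4 h kidneys, against 4.41 and 4.54 in naive kidneys.

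With CO, 6 of 56 genes fell at 4 h and 0 rose, where 13.6% of all probe sets passed (6.72% lower, 6.84% higher). The share of members called in either direction was thus close to that of all probe sets. The median change of the 56 genes was -0.64, against -0.014 over all probe sets. The 6 genes that fell were ALDH1B1 (-2.20 ± 0.57, adjusted p = 0.0209), GSTZ1 (-1.41, adjusted p = 0.024), AKR1A1 (-1.14, adjusted p = 0.0164), AKR7A2 (-1.10, adjusted p = 0.0246), AKR1E2 (-1.09, adjusted p = 0.0446) and ADH5 (-0.77, adjusted p = 0.027). ALDH1B1 had 6.47, 6.70, 7.62 and 8.49 in CO 4 h kidneys and 9.36, 7.20, 7.41 and 8.57 in untreated 4 h kidneys, against 9.83 and 9.21 in naive kidneys. All CO 4 h kidneys lay below naive, and the untreated donor 1 kidney lay among the naive ones. The count was 0 without either naive kidney, 1 without the CO kidney of donor 1 and 13 without that of donor 4, and it was 18 with array weights. The share of all probe sets in those fits is not given here, so these counts cannot be set against it. All 6 genes were lower than naive in batch 1 and in batch 2 alike, but they were chosen on the same kidneys.

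Kidneys of a group differed in how far they had moved. Over the 23 genes called at 24 h without CO, the median difference from the naive mean was -1.42, -1.84, -1.91 and -1.54 in the CO 24 h kidneys, -2.28, -2.37, -1.79 and -1.90 in the untreated 24 h kidneys, -1.29, -1.44, -0.86 and -0.32 in the CO 4 h kidneys and -0.38, -0.85, -0.93 and -0.15 in the untreated 4 h kidneys, in donor order. The genes were chosen on the untreated 24 h and naive kidneys, so the values of those describe that choice. All values and counts here are set against the same naive kidneys, so the choice also favours lower values in the other groups. At 4 h both kidneys of donor 4 were nearest to naive: 16 of the 23 genes lay below both naive kidneys in its CO kidney and 12 in its untreated one, against 21 or 22 in the other CO kidneys and 15 to 22 in the other untreated kidneys.

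Between 4 h and 24 h, in different donors, 15 of 56 enzyme genes fell in untreated kidneys and 0 rose, where 9.72% of all probe sets passed (4.57% lower, 5.15% higher), and the median change was -0.52. The largest were CYP2A19 (-4.10 ± 1.24, adjusted p = 0.0467), UGT2B31 (-3.12 ± 0.76, adjusted p = 0.0162) and CYP2D25 (-3.04 ± 0.54, adjusted p = 0.00235). The second probe set of CYP2D25 had a positive estimate here (0.58, adjusted p = 0.1776). CYP2A19 levels were 6.15, 3.04, 2.78 and 7.42 in untreated 24 h kidneys and 9.81, 5.31, 9.82 and 10.86 in untreated 4 h kidneys, so the groups overlapped through the 4 h kidney of donor 2. The count was 9 without the untreated 24 h kidney of donor 6 and 8 without the untreated 4 h kidney of donor 4. Without the untreated 4 h kidney of donor 1 it was 13, of which 12 were among the 15. The gene gained there was GSTA4, a rise (estimate 0.98 with all arrays). CYP2A19 did not pass in 6 of the 8 fits with 1 of these kidneys left out, the exceptions being those without the 4 h kidney of donor 2 or the 24 h kidney of donor 8. In batch 2, the one batch with both times, 14 of the 15 were lower in the 24 h kidney of donor 5 than in the 4 h kidney of donor 2, and CYP2A19 was higher by 0.84. The 15 were chosen on these kidneys among others, and over all members the median difference there was -0.24. With array batch in the fit 0 passed.

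With CO, 10 members fell and 2 rose between 4 h and 24 h, where 17.6% of all probe sets passed, 7.44% lower and 10.2% higher. The largest falls were again those of CYP2A19 (-5.23 ± 1.24, adjusted p = 0.00882), UGT2B31 (-2.78 ± 0.76, adjusted p = 0.0197) and CYP2D25 (-2.42 ± 0.54, adjusted p = 0.0064). The estimate of the second CYP2D25 probe set was again positive (0.68, adjusted p = 0.0744). GSTA4 rose: it had 5.72, 5.36, 5.73 and 5.21 in CO 24 h kidneys and 3.35, 4.33, 3.39 and 3.20 in CO 4 h kidneys (1.94 ± 0.36, adjusted p = 0.00212), with no overlap, against 4.62 and 4.82 in naive kidneys. ALDH18A1 rose by less, with 7.72, 7.33, 7.28 and 7.18 in CO 24 h kidneys and 6.56, 6.86, 6.86 and 6.89 in CO 4 h kidneys (0.58 ± 0.17, adjusted p = 0.0282). The count was 7 without the CO 24 h kidney of donor 7 and 7 without the CO 4 h kidney of donor 4, and AKR7A2, CYP2A19, CYP2D25, GSTA4 and GSTZ1 passed in every such fit. No batch holds CO kidneys of both times, and with array batch in the fit 0 passed.

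No enzyme gene passed in CO against untreated kidneys, at 24 h or at 4 h, and the same was true of all probe sets (0.0% at both times). At an unadjusted p under 0.05 there were 2 members at each time, with 1.17% of all probe sets at 24 h and 3.28% at 4 h, and without the untreated kidney of donor 1 the count at 4 h was still 0. At 24 h the members of smallest p were ALDH18A1 (0.41 ± 0.17), CYP2C33 (0.61 ± 0.27) and AKR1C1 (0.86 ± 0.43), all with an adjusted p of 0.9999. CYP2C33 had 10.44, 10.53, 10.44 and 11.38 in CO 24 h kidneys and 9.50, 9.63, 10.96 and 10.25 in untreated 24 h kidneys, and the groups overlapped. At 4 h they were AKR7A2 (-0.55 ± 0.24), CYP3A39 (-0.46 ± 0.20) and AKR1A1 (-0.47 ± 0.23), all with an adjusted p of 0.9992. In no member were the CO and untreated kidneys of a time fully apart, whereas all CO kidneys lay above in 0.7% and below in 0.483% of all probe sets at 24 h, and above in 0.908% and below in 0.908% at 4 h. The SE of these contrasts ran between 0.10 and 1.51 over the members, with a median of 0.30, and a p that misses the threshold does not show that the groups were alike. These contrasts did not use the donor pairs, so their SE includes differences between donors. With the donor number as a block the count was 0 as well.

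The median CO minus untreated difference over the 56 genes was 0.15 at 24 h and -0.16 at 4 h. Within donors the median was -0.41, -0.13, 0.051 and -0.058 for donors 1 to 4 at 4 h, and 0.35, 0.16, -0.034 and 0.051 for donors 5 to 8 at 24 h. Of the 56 genes 42, 38, 21 and 37 were lower in the CO kidney of donors 1 to 4, and 14, 18, 29 and 27 in that of donors 5 to 8. The difference between the CO effects at 24 h and 4 h passed in 0 members and in 0.0% of all probe sets, and 4 members and 2.55% of all probe sets had an unadjusted p under 0.05. The smallest p values were those of AKR7A2 (1.03 ± 0.34), ALDH18A1 (0.63 ± 0.24) and AKR1C1 (1.52 ± 0.61), each with an adjusted p of 0.996.

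**Figure D4:**
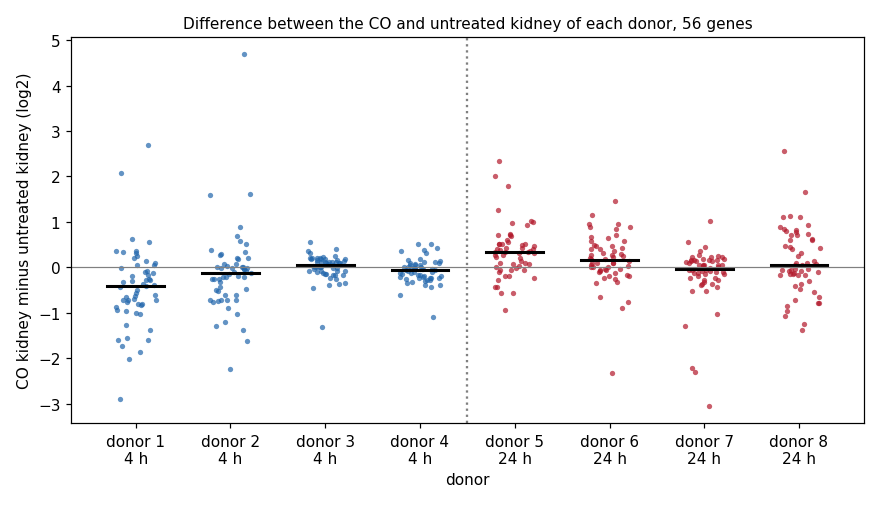
Difference between the CO and the untreated kidney of each donor in log2 units, 1 point for each of the 56 enzyme genes, with the median as a bar. Donors 1 to 4 were sampled at 4 h and donors 5 to 8 at 24 h, and the medians lie between -0.41 (donor 1) and 0.35 (donor 5).

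Members also differed from each other in spread. The SD within transplanted groups, pooled over the 4 groups, had a median of 0.46 over the members and of 0.28 over all probe sets. The widest was that of AKR1CL1, 2.29. Its levels were 8.86, 3.10, 3.66 and 8.07 in the CO 24 h kidneys of donors 5 to 8 and 8.54, 2.14, 3.41 and 8.02 in their untreated partners, so both kidneys of donors 5 and 8 were high and both of donors 6 and 7 low. At 4 h the CO kidneys of donors 1 to 4 had 5.98, 6.77, 6.63 and 8.25 and the untreated ones 6.94, 6.20, 6.37 and 8.16. Kidneys of 1 donor never differed by more than 0.96 in this gene. In CYP2A19, of the next largest spread (1.98), donors 5 and 8 were likewise above donors 6 and 7 in both kidneys, but the kidneys of donor 2 differed by 4.69. CYP3A29, with a spread of 1.83, had 4.16, 2.37, 1.95 and 5.76 in the CO 4 h kidneys of donors 1 to 4 and 4.92, 2.15, 1.97 and 5.95 in their untreated partners, which places donors 2 and 3 low in both. At 24 h it had 4.04, 1.35, 3.29 and 1.23 in the CO kidneys of donors 5 to 8 and 4.97, 3.68, 6.32 and 1.40 in their untreated partners, so the CO kidneys of donors 6 and 7 were more than 2 log2 units below their partners.

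Other genes that work with these enzymes were taken from 5 lists, of which 55 genes were measured. At 24 h without CO 23 of the 55 fell and 5 rose, and with CO 21 fell and 5 rose. Of all probe sets 7.77% fell and 6.79% rose without CO and 5.93% fell and 5.75% rose with CO, so the share of rises was close to that of all probe sets; the list counts below are to be read against these shares. At 4 h 5 fell with CO, where 6.72% of all probe sets did, and 0 passed without CO, and CO against untreated kidneys gave 0 at both times. Of 5 partners of P450, 2 fell at 24 h without CO. CYB5A, the cytochrome b5 that hands electrons to P450, had 8.68, 8.43, 8.90 and 9.07 in untreated 24 h kidneys, against 10.62 and 10.86 in naive kidneys (-1.97 ± 0.30, adjusted p = 0.000815). FDXR, the reductase that feeds mitochondrial P450, fell by 0.76 (adjusted p = 0.0113), but not with either naive kidney left out. POR, the main electron donor of microsomal P450, had an estimate of 0.12 (adjusted p = 0.797).

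Of 9 regulators, 2 fell. NR1I2, the pregnane X receptor that senses drugs and induces CYP genes, had 2.63, 1.90, 2.41 and 2.83 in untreated 24 h kidneys, against 4.18 and 4.24 in naive kidneys (-1.77 ± 0.30, adjusted p = 0.00135). HNF4A, a transcription factor of liver and proximal tubule, had 7.13, 7.14, 7.95 and 7.16 in untreated 24 h kidneys, against 8.89 and 9.23 in naive kidneys (-1.71 ± 0.41, adjusted p = 0.0102), and did not pass with either naive kidney left out. AHR, the dioxin receptor, had an estimate of -0.23 (adjusted p = 0.421).

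Of 15 other oxidising and hydrolysing enzymes, 11 fell and 2 rose without CO. DPEP1, the renal dipeptidase that also hydrolyses some beta-lactam drugs, had 6.83, 5.37, 6.13 and 6.06 in untreated 24 h kidneys, against 9.77 in both naive kidneys (-3.67 ± 0.42, adjusted p = 0.000142). CBR1, a carbonyl reductase, fell by 2.91 ± 0.72 (adjusted p = 0.0128), but not with either naive kidney left out. NQO1, a quinone reductase induced by oxidative and electrophilic stress, rose: it had 9.81, 8.57, 9.09 and 8.48 in CO 24 h kidneys and 9.72, 9.27, 8.71 and 9.32 in untreated 24 h kidneys, against 6.53 and 6.35 in naive kidneys (untreated 2.82 ± 0.38, adjusted p = 0.000323).

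Of 13 other conjugation and cofactor genes, 4 fell and 2 rose. INMT, a methyltransferase of tryptamine and other amines, fell by 4.85 ± 0.62 (adjusted p = 0.000225), with 2.93, 3.23, 3.86 and 4.19 in untreated 24 h kidneys, against 8.54 and 8.26 in naive kidneys. GGT1, the brush-border enzyme that degrades glutathione conjugates, fell by 2.30 (adjusted p = 0.00281), and PAPSS1, which makes the sulfate donor of SULT enzymes, rose by 0.96 (adjusted p = 0.0316). Of 13 drug transporters, 4 fell and 1 rose. The basolateral organic anion transporters SLC22A6 (-3.83 ± 0.61, adjusted p = 0.000989) and SLC22A8 (-2.96 ± 0.56, adjusted p = 0.00266) fell, and the carnitine transporter SLC22A5 rose (1.43 ± 0.44, adjusted p = 0.0406). SLC22A6, SLC22A8 and HNF4A are also among the proximal tubule markers above.

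**Figure D5:**
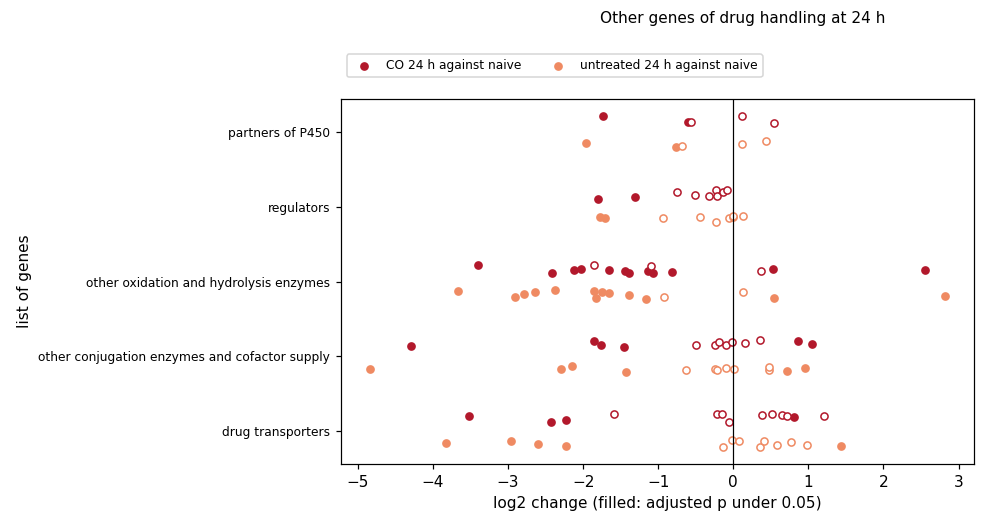
Log2 change at 24 h, with CO and without CO, relative to naive kidneys for 55 other genes of drug handling in 5 lists, 1 point per gene and comparison, filled where the adjusted p was under 0.05. The largest fall is that of INMT (-4.85 without CO) and the largest rise that of NQO1 (2.82 without CO).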

How the data were processed

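RNA of 18 pig kidneys was hybridised to 1 Affymetrix pig array each. The deposited values are on a log2 scale, 1 per probe set, and were made by the authors with RMA, per the submitters' processing notes; its version and settings are not given in the sources used here. Values run from 0.226 to 13.46, with array medians of 3.753 to 3.943. Of 24123 probe sets, the 124 controls were dropped and all other 23999 were tested. By the platform annotation 10069 of these have 1 symbol, 198 several and 13732 none, and 55 of the 56 members matched a RefSeq gene by identifier.

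Groups came from titles and source names. Members, lists and alternatives were chosen with earlier results of these data known. The test was that of limma 3.58.1 in R 4.3.3: lmFit, then eBayes, on the 18 arrays in 5 groups, two-sided, with Benjamini-Hochberg adjustment over 23999 probe sets. The fit was tested on simulated data. Genes were named by a rule: per family up to 3 largest falls that passed (6 for CYP) and 2 rises, the member of smallest p where none passed and the brightest member; per other comparison the largest changes that passed, or the 3 of smallest p; per list up to 2. Other members are named to account for all of them, and POR, AHR, NQO1, PAPSS1, SLC22A5, CD3D, IL2RG, TF and ALB were added after their values were seen. P-values set a difference of group means against the spread between kidneys within groups, estimated over the 18 arrays. The main fit holds neither donor nor array batch, and so treats both kidneys of a donor as independent.

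Donor numbers pair the CO and untreated kidneys, per the labels. After group means were removed, the correlation between kidneys of a donor was -0.201, 0.071, 0.28, 0.569, 0.16, 0.347, 0.265 and 0.39 for donors 1 to 8. Batches follow a mark in the array file names: naive 1 and the kidneys of donors 1, 3 and 4 are in batch 1; naive 2, the donor 2 pair and the untreated kidney of donor 5 are in batch 2; the CO kidney of donor 6 alone is batch 4; all others are in batch 3. Alternatives were an intensity trend, a filter on dim probe sets, quantile normalisation, array weights, a block for batch, a block for donor (statmod 1.5.0), only the compared groups, every probe set and each array left out. No sequence of the members was used here. Plots were made in matplotlib 3.10.9 under Python 3.11.15.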

Additional observations from a re-analysis of the deposited data

Results flagged for a closer look

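In groups of 4 kidneys, 7 of 104 tested gene and group pairs had a kidney far from the other 3 by Dixon's test at the 95% level. Chance gives about 1 in 20. The pairs cover only the 26 members named by the rule. GSTM3 was thus not tested, although its untreated 4 h level was 2.34 in donor 1 and 5.36 to 5.57 in the others. In untreated 24 h kidneys that of donor 7 was the highest in AKR1C1, at 7.68 with the others at 6.47 to 6.56, and in AKR7A2, at 7.03 with the others at 6.61 to 6.67. In CO 24 h kidneys that of donor 8 was the highest in CYP2C33, at 11.38 with the others at 10.44 to 10.53. In CO 4 h kidneys the lowest ALDH18A1 level was that of donor 1 (6.56, others 6.86 to 6.89), the highest GSTA4 level that of donor 2 (4.33, others 3.20 to 3.39) and the highest SULT1A3 level that of donor 4 (8.23, others 7.01 to 7.12). In untreated 4 h kidneys donor 3 had the lowest ALDH18A1 level (6.67, others 7.11 to 7.15).

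GSTA4 was higher in the CO than in the untreated kidney of all 4 donors at 24 h (mean difference 0.37) and lower in all 4 at 4 h (-0.59). The difference between both effects was 0.96, with an adjusted p of 0.996 in limma and an unadjusted p of 0.0777, so it did not pass.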

How the results depend on the processing

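Counts of members that passed depended most on the naive kidneys, the array batch and array weights. With all arrays 23 members passed in untreated 24 h against naive kidneys, and 10 to 26 with 1 array left out. The count was 19 in CO 24 h against naive (4 to 21), 0 in untreated 4 h against naive (0 to 2), 6 in CO 4 h against naive (0 to 13), 15 in untreated 24 h against untreated 4 h (8 to 19) and 12 in CO 24 h against CO 4 h (7 to 13). It was 0 in CO against untreated at 24 h, at 4 h and in the difference of both effects, under every alternative run. With array batch as a block 2 passed in untreated 24 h against naive, and 0 in CO 24 h against naive, in untreated 24 h against untreated 4 h and in CO 24 h against CO 4 h; the median SE of the called genes was then 0.57, against 0.38, in the first of these. With array weights 32 passed in CO 24 h against naive, 8 in untreated 4 h against naive, 18 in CO 4 h against naive and 25 in untreated 24 h against untreated 4 h. The share of all probe sets that passed in these alternatives is not given here. A change in a count is thus not shown to be particular to the members. Counting every probe set gave 1 in untreated 4 h against naive, and fitting only the compared groups gave 3 in CO 4 h against naive, 1 of them higher; the cause was not tested.

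With the donor number as a replicate block, 23, 19, 0 and 8 members passed in untreated 24 h, CO 24 h, untreated 4 h and CO 4 h against naive, 18 in untreated 24 h against untreated 4 h, 12 in CO 24 h against CO 4 h and 0 in the CO comparisons, within 1.5 times the counts without it. GSTO1 in untreated 24 h against naive changed sign, to 0.0549 with quantile normalisation (adjusted p = 0.921) and to 0.0718 with the batch block (adjusted p = 0.96). Of 851 recomputed values for 61 gene results, 724 kept direction and side of the threshold, 123 lost the threshold (40 with the batch block, 22 without naive 1 and 21 without naive 2), 2 gained it and 2 changed sign. Signal over background limits the 9 dim members.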

Other observations

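Another 7 probe sets of these enzyme families carry several symbols in the platform annotation and cannot be assigned to 1 gene. All 7 had negative changes in untreated 24 h against naive kidneys, between -3.09 and -0.28. In limma 4 of them passed there, and 3 in CO 24 h against naive kidneys.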
